A study of Mus musculus with 26 samples.

Results

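Striatum of R6/1 mice that received Elk-1 by adeno-associated virus (AAV) was compared with striatum of wild-type mice given a control AAV, to describe which transcripts were still away from the wild-type level when Elk-1 was supplied. The comparison used 6 of the 26 libraries of the series: 4 Elk-1-AAV R6/1 libraries and 2 control-AAV wild-type libraries, all from mice 10 weeks old. The R6/1 transgene encodes exon 1 of human huntingtin. A further 2 libraries of control-AAV R6/1, also at 10 weeks, stand in both deposited tables and link them. The control vector is called mCherry in the tables. The remaining groups, whose labels name no AAV, are R6/1 and wild type at 4 weeks and 8 weeks and, at 1 year, the CHL2 Huntington's disease model with its wild type; each of these has 3 libraries. Every AAV group thus carries a vector, and no wild-type group with Elk-1-AAV was analysed here. Promoter, serotype, dose, injection site, age at injection and the species of the supplied Elk-1 are not given in the labels. The labels also leave out the sex of the mice and whether libraries of a group came from separate animals.

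The authors deposited 1 pooled FPKM (fragments scaled to transcript length and to the mapped total) per gene and group. No spread between libraries can be had for this pair and no deposited test covers it. A gene is therefore called lower or higher here only by size, when its pools differed by 2-fold or more on the log2(FPKM + 1) scale, and no p-value goes with such a call. The Elk-1 values were multiplied by 0.977, which gives the shared control-AAV R6/1 column the same median in both tables. After scaling, the 2 copies of that column differed by at most 0.0030 on the log2 scale. Of 12610 symbols found in both tables, 12589 had a mean FPKM of at least 0.5 and were no small RNA. The highest mean left out was 0.472 FPKM and the lowest kept was 0.503 FPKM.

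The striatum consists mostly of spiny projection neurons, which send direct-pathway axons (marked by dopamine receptor D1, substance P and dynorphin) or indirect-pathway axons (marked by dopamine receptor D2, an adenosine receptor and enkephalin). Loss of the transcripts that give these neurons their identity is a known feature of Huntington's disease models. Elk-1 is an ETS-family ternary complex factor: after phosphorylation by MAP kinases it acts with SRF, bound to CArG boxes next to ETS sites, on immediate-early genes such as Fos and Egr1.

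The Elk1 transcript was read out first. Since the species of the supplied Elk-1 is not given, the mouse Elk1 value may not count all of its transcript. Elk1 (chrX:20510520-20527726 as listed on mm9) stood at 17.0 FPKM in the control-AAV wild-type pool, 14.8 FPKM in the control-AAV R6/1 pool and 29.4 FPKM in the Elk-1-AAV R6/1 pool. The Elk-1 pool was thus at 174% of wild type, below the 2-fold limit, and the authors' deposited table gives a q of 0.0122 for its rise over control-AAV R6/1. That table calls 38 genes (0.299%) higher and 35 (0.276%) lower than in control-AAV R6/1. The 6 pools with no AAV in their labels held 19.95 to 23.4 FPKM of Elk1. The other ternary complex factors Elk3 and Elk4 stood at 2.24 and 2.04 FPKM under Elk-1-AAV against 2.03 and 3.24 FPKM in wild type, and Htt, the mouse huntingtin gene, stood at 11.4 against 11.1 FPKM. Srf, the DNA-binding partner, stood at 20.2 FPKM under Elk-1-AAV, 16.8 FPKM in control-AAV R6/1 and 21.4 FPKM in wild type.

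The 3 AAV pools differed in sex-linked transcripts. Eif2s3y, which is Y-linked, stood at 12.6 FPKM in control-AAV wild type, 0.0289 FPKM in control-AAV R6/1 and 5.98 FPKM in Elk-1-AAV R6/1, and Ddx3y, also Y-linked, at 4.53, 0.0101 and 3.21 FPKM. Xist, the RNA of the inactive X chromosome, stood at 12.8, 29.0 and 19.3 FPKM. The 3 AAV pools therefore held different mixtures of male and female material, and genotype, virus and sex cannot be told apart in them. In bulk tissue, fewer cells of a type and less RNA per cell cannot be told apart either.

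Because immediate-early genes are read out below, the RefSeq promoter windows (GRCm38.p6, 250 bases before each start) were searched on both strands for CArG boxes and for the ETS core CCGGAA. Among 9019 compared genes with a window, 1.37% held a CArG box and 24.2% an ETS core. Shown in capitals are these motifs at Egr2, a zinc-finger immediate-early gene far below wild type under Elk-1-AAV, upstream of 2 of its annotated starts (chr10:67537425-67537533 and chr10:67537787-67537816, plus strand), and at Srf, which lay near the wild-type level (chr17:46556205-46556294, minus strand).
Egr2 first start: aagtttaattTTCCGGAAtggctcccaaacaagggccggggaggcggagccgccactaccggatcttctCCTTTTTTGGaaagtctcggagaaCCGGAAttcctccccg
Egr2 second start: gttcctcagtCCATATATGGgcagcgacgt
Srf: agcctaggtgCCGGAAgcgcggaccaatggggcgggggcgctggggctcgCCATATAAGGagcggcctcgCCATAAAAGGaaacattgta
At the first Egr2 start the first capitals hold an ETS core on each strand, which overlap by 4 bases, and no other motifs overlap in these stretches. The first Egr2 start and the Srf start thus have both classes of motif, and the second Egr2 start has a CArG box only. Under Elk-1-AAV, Egr2 stood at 21.9% and Srf at 94.7% of wild type. Whether the motifs relate to these levels was not tested. Of the genes called 2-fold lower, 39 had a window, of which 2 (Egr2 and Zfp36, which destabilises AU-rich mRNAs) held a CArG box and 9 an ETS core. A CArG box was present in 5 of the 12 cytoskeletal SRF targets that had a window. In the activity-induced list, 25 of 36 genes had a window and 2 of these held a CArG box. Sites farther than 250 bases before a start were not searched, so a gene without a match may carry such a box elsewhere. These matches describe the letters only.

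Most genes lay close to wild type. Under Elk-1-AAV, 60 of the 12589 genes (0.477%) were 2-fold or more lower than wild type and 110 (0.874%) were 2-fold or more higher. At 1.5-fold these numbers were 297 (2.36%) and 346 (2.75%). The median change was 0.02, with quartiles of -0.15 and 0.19, on the log2(FPKM + 1) scale. In all, 5866 genes lay below wild type and 6723 above it. These counts and shares over all genes are the background for the list counts below. Over the same genes, control-AAV R6/1 held 147 genes (1.17%) 2-fold lower and 119 (0.945%) 2-fold higher than wild type. Both R6/1 pools were set against the same wild-type pool, so their values are given side by side and the likeness between them is not counted as a result. The pools also hold unequal numbers of libraries, 4 for Elk-1-AAV R6/1 and 2 for control-AAV R6/1. Whether this had a part in their unequal counts was not tested. The lower genes were well expressed, with a median of 18.9 FPKM in wild type and 6.96 FPKM under Elk-1-AAV. The higher genes were mostly weak, with medians of 1.91 and 7.27 FPKM, and 33 of them were below 1 FPKM in wild type, with 2 (2900093L17Rik and Gm5480) listed at 0 there. Of the 60 lower genes 33 belong to the 30 gene lists described here, mainly the activity-induced list (13 genes) and the shared projection neuron list (8 genes). Of the 110 higher genes 45 belong to a list, mainly the choroid plexus and ependymal (19 genes) and cytosolic ribosomal protein (15 genes) lists. Of all 12589 genes compared, 785 belong to a list. The lists were chosen with earlier results of these data known, so these shares are descriptive only.

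**Figure D1:**
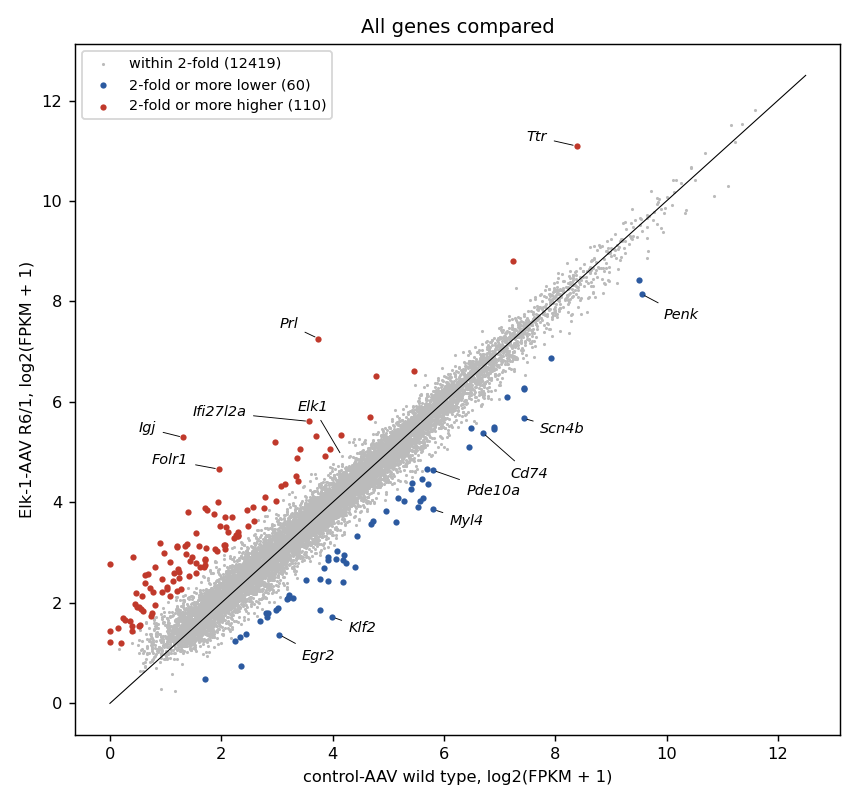
Each point is 1 of the 12589 genes compared, at its control-AAV wild-type level (x axis) and its Elk-1-AAV R6/1 level (y axis), both as log2(FPKM + 1) of the group's pooled value; the line marks equal levels. Blue points are the 60 genes 2-fold or more lower (median 18.9 FPKM in wild type) and red points the 110 genes 2-fold or more higher (median 1.91 FPKM in wild type).

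The called genes were also set beside the 6 pools with no AAV in their labels, as a description only: the genes were called on the same wild-type and Elk-1 values, so extreme values of these pools are favoured by the choice. The control-AAV wild-type pool lay above all 6 in 42 of the 60 lower genes, by 2-fold or more in 22 of them. It lay below all 6 in 58 of the 102 higher genes that all 6 list, and the Elk-1 pool lay above all 6 in 82 of them. Over the 12546 compared genes that all 6 list, with no such choice, the wild-type pool lay above all 6 in 40.5%. By 2-fold or more it lay above all 6 in 216 of these genes, and it lay below all 6 in 32.8%. The Elk-1 pool lay above all 6 in 42.8% and below all 6 in 32.3% of these genes. These tables were normalized separately, with median levels of 12.3 to 13.2 FPKM over the genes they share.

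Striatal identity was checked and was present. The projection neuron markers Ppp1r1b, Penk and Tac1 stood at 515, 283 and 230 FPKM in the Elk-1 pool. Of the defining markers of other cells, Cd3e and Cd8a (T cells), Hcrt (hypothalamus) and Alas2 (red cells) were not among the genes compared. Markers of neighbouring tissue were present and are given further on.

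Projection neuron genes were the first group still below wild type. Of the 44 measured genes shared by both kinds of spiny projection neuron, 43 lay below wild type under Elk-1-AAV. Of all 12589 genes, 5866 did. By 2-fold or more, 8 of the 44 (18.2%) were lower, beside 0.477% of all genes, and none was higher. The list median was -0.57, beside 0.02 for all genes. In control-AAV R6/1 the same list held 12 genes 2-fold lower, with a median of -0.79. The summed FPKM of the list came to 65.9% of wild type under Elk-1-AAV and 55.2% in control-AAV R6/1. Cortical excitatory markers were also below wild type in both R6/1 pools (described below), and their part in this result was not tested.

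Scn4b, the sodium channel beta-4 subunit enriched in these neurons (chr9:44947124-44962144, mm9), was the member farthest from wild type. It stood at 172 FPKM in wild type, 38.6 FPKM in control-AAV R6/1 and 50.1 FPKM in Elk-1-AAV R6/1. Both R6/1 pools thus lay far below wild type, by -1.76 on the log2(FPKM + 1) scale under Elk-1-AAV. Libraries that share nothing with these gave 350 FPKM in 8-week wild type and 80.4 FPKM in 8-week R6/1. Pde10a, the striatal phosphodiesterase that degrades cAMP and cGMP, stood at 54.8, 20.7 and 24.0 FPKM in the same order of AAV pools, which leaves the Elk-1 pool at 43.7% of wild type. Kcnh4, a voltage-gated potassium channel, stood at 8.73, 2.57 and 3.28 FPKM, and Arpp19, a phosphatase inhibitor regulated by phosphorylation, at 173, 70.4 and 75.7 FPKM. All 4 of these genes were past 2-fold in both R6/1 pools. For Pde10a, 8-week wild type held 209 FPKM and 8-week R6/1 held 70.2 FPKM, so the control-AAV wild-type pool lay below both. The same 8-week groups held 13.6 and 4.17 FPKM of Kcnh4 and 132 and 61.2 FPKM of Arpp19. Those values come from a separately normalized table.

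The central striatal signalling genes were lower by less. Ppp1r1b, which encodes DARPP-32, the dopamine-regulated phosphatase inhibitor, stood at 816 FPKM in wild type, 374 FPKM in control-AAV R6/1 and 515 FPKM in Elk-1-AAV R6/1. It was 2-fold lower in the control-AAV R6/1 pool and at 63.1% of wild type in the Elk-1 pool. The authors' deposited table gives a q of 0.729 for Ppp1r1b between the 2 R6/1 groups, so that gap was not called. Nearest to wild type were Pde2a, a phosphodiesterase at 156 against 159 FPKM, and Foxp2, a forkhead transcription factor at 8.72 against 9.09 FPKM. The single member above wild type was Gng7, a G protein gamma subunit, at 183 against 166 FPKM.

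Direct-pathway and indirect-pathway genes differed in median but overlapped. Of 9 direct-pathway genes none was past 2-fold in either direction under Elk-1-AAV, with a median of -0.17, while of 12 indirect-pathway genes 2 were 2-fold lower, with a median of -0.43. The quartiles were -0.71 and -0.02 for the direct-pathway list and -0.81 and -0.08 for the indirect-pathway list. In control-AAV R6/1 the medians were -0.36 and -0.52, with 1 and 3 genes 2-fold lower. The difference between the 2 lists was not tested. Penk, the enkephalin precursor of indirect-pathway neurons (chr4:4060682-4065592, mm9), stood at 749 FPKM in wild type, 250 FPKM in control-AAV R6/1 and 283 FPKM in Elk-1-AAV R6/1. Adora2a, the striatal adenosine receptor, stood at 94.2, 39.6 and 46.7 FPKM, and at 49.6% of wild type it fell just short of 2-fold on the log scale used. Gpr52, an orphan receptor, stood at 14.2, 4.99 and 6.54 FPKM, and Drd2, the D2 dopamine receptor, at 59.3, 36.7 and 43.8 FPKM. Among direct-pathway genes, Drd1a, the D1 dopamine receptor, stood at 39.1, 19.5 and 22.3 FPKM. Pdyn, the dynorphin precursor, stood at 37.6, 23.7 and 33.2 FPKM, and Tac1, the substance P precursor, at 239, 210 and 230 FPKM, at 96.5% of wild type under Elk-1-AAV. Chrm4, the muscarinic M4 receptor, was at 59.8% of wild type.

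**Figure D2:**
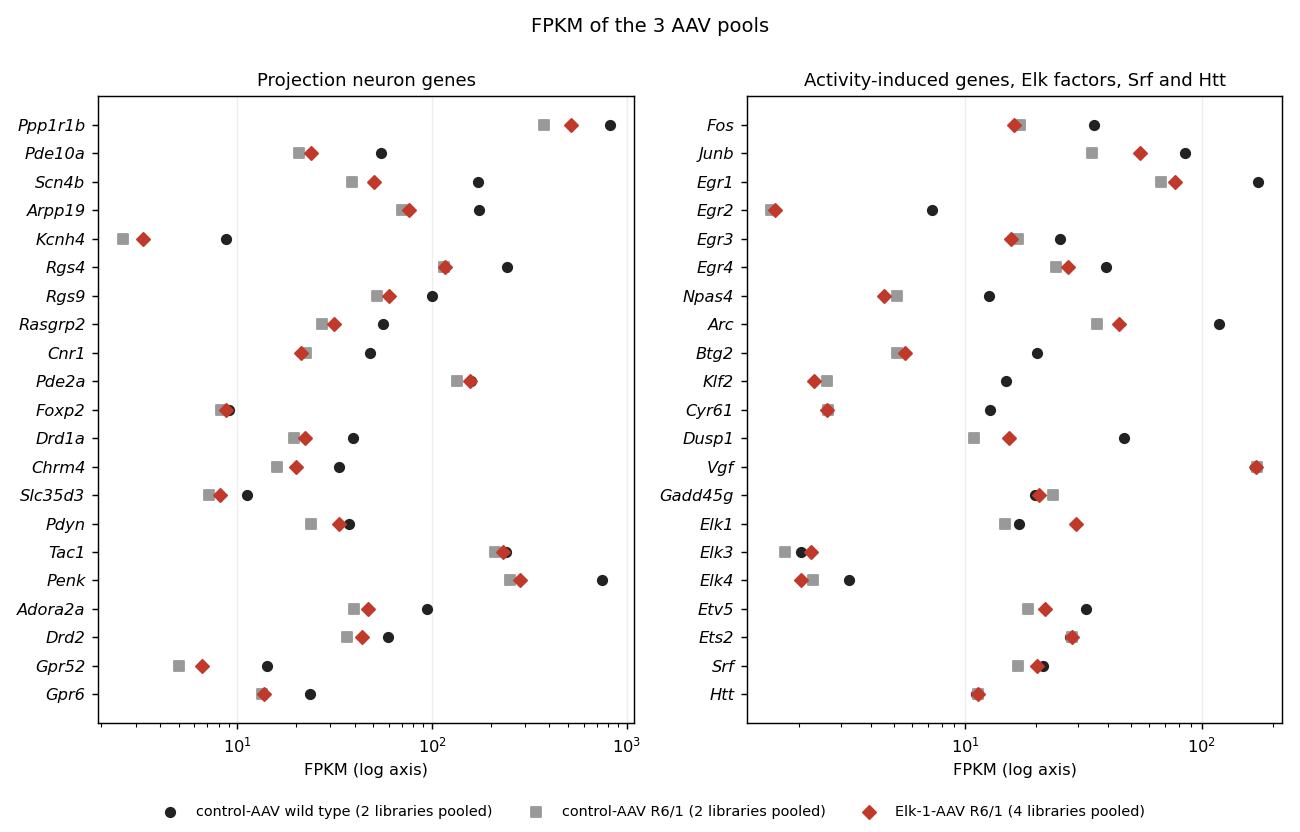
Pooled FPKM (log x axis) of named projection neuron genes (left) and of activity-induced genes, Elk factors, Srf and Htt (right) in control-AAV wild type (black circles), control-AAV R6/1 (grey squares) and Elk-1-AAV R6/1 (red diamonds); no error can be drawn, since each group has 1 pooled value. For Penk, Pde10a and Scn4b the red and grey symbols lie side by side, well left of the black ones, whereas for Tac1, Pde2a, Foxp2 and Srf the 3 symbols lie close together, and Elk1 is highest in the Elk-1 pool.

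Receptor, channel and signalling lists share members with the projection neuron lists, and all 5 genes named here as 2-fold lower (Cnr1, Scn4b, Kcnh4, Pde10a and Rgs4) are also in the shared projection neuron list. Among 52 neurotransmitter receptors 48 lay below wild type under Elk-1-AAV, beside 5866 of all 12589 genes, with a median of -0.41. Only Cnr1, the cannabinoid CB1 receptor, was 2-fold lower. It stood at 47.7 FPKM in wild type, 22.6 FPKM in control-AAV R6/1 and 21.2 FPKM in Elk-1-AAV R6/1. The kappa opioid receptor gene Oprk1 stood at 5.89, 3.26 and 2.54 FPKM. Of 57 voltage-gated channel genes 52 lay below wild type, with a median of -0.30 and 2 of them, Scn4b and Kcnh4, past 2-fold. Of 41 phosphodiesterase and cAMP signalling genes 2 were 2-fold lower, Pde10a and Rgs4, a regulator of G protein signalling at 243, 115 and 117 FPKM. The list median was -0.23. Synaptic vesicle genes had a median of -0.23 with none of 35 past 2-fold. The farthest below was Snap25, a SNARE protein at 59.2% of wild type. The farthest above was Slc32a1, a vesicular transporter gene, at 104 against 86.4 FPKM. Syp, synaptophysin, was the nearest to wild type, at 101%.

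Activity-induced genes stood farther below wild type than any other list of more than 4 measured genes. Of 36 immediate-early and activity-induced genes 33 were below wild type under Elk-1-AAV, with a median of -0.79. By 2-fold or more, 13 (36.1%) were lower, beside 0.477% of all genes, and none was higher. Control-AAV R6/1 held 15 of the 36 genes 2-fold lower, with a median of -0.83. Egr1, a zinc-finger transcription factor and textbook Elk-1 target, stood at 173 FPKM in wild type, 66.9 FPKM in control-AAV R6/1 and 77.0 FPKM in Elk-1-AAV R6/1. Fos, the AP-1 subunit, stood at 34.9, 17.1 and 16.1 FPKM, and Arc, a synaptic cytoskeletal protein, at 118, 36.1 and 44.6 FPKM. For all 3 the wild-type pool stood far above both R6/1 pools, and the R6/1 pools were close to each other.

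The farthest genes of the list were not neuron-specific. Klf2, a Kruppel-like factor also abundant in vessel cells (chr8:74842960-74845553, mm9), stood at 14.9 FPKM in wild type, 2.63 FPKM in control-AAV R6/1 and 2.30 FPKM in Elk-1-AAV R6/1, the largest difference below wild type of all genes compared, at -2.27. Cyr61, a secreted matricellular protein, stood at 12.8, 2.63 and 2.61 FPKM, and Btg2, an antiproliferative factor, at 20.1, 5.19 and 5.56 FPKM. Egr2, whose promoter letters are given above, stood at 7.23, 1.52 and 1.58 FPKM. Dusp1, a MAP kinase phosphatase, stood at 46.8, 10.9 and 15.3 FPKM. Npas4, a neuron-specific activity-induced factor, stood at 12.7, 5.14 and 4.57 FPKM. Junb, another AP-1 subunit, was 2-fold lower in control-AAV R6/1 (34.3 FPKM) but not under Elk-1-AAV (54.6 FPKM) against 85.2 FPKM in wild type, and the authors' deposited table gives a q of 0.0635 between the R6/1 groups. Nearest to wild type were Vgf, a neurosecretory precursor at 101%, and Gadd45g, a stress-response gene at 104% of wild type.

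The height of the wild-type pool enters these values. In the 6 pools with no AAV in their labels Klf2 held 4.01 to 6.61 FPKM, Cyr61 3.61 to 5.27 FPKM and Btg2 5.58 to 9.75 FPKM, so the control-AAV wild-type pool stood at more than 2 times the highest of them for all 3. For Egr1, at 70.6 to 151 FPKM in those pools, and Egr2, at 1.01 to 8.92 FPKM, it did not. With the 8-week wild-type pool as the reference instead, an alternative chosen after seeing the data, the activity-induced median was -0.40 and the shared projection neuron median -1.23. That reference is younger, comes from a separately normalized table and gives 597 lower and 720 higher genes.

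The Elk and SRF machinery and the cytoskeletal SRF targets lay near wild type. None of 14 Elk factors, SRF and cofactors was past 2-fold under Elk-1-AAV (median -0.11), and none of 15 SRF-dependent cytoskeletal and housekeeping targets was (median -0.08). Etv5, an ETS factor, stood at 32.3 FPKM in wild type, 18.4 FPKM in control-AAV R6/1 and 21.8 FPKM in Elk-1-AAV R6/1. Tgfb1i1, a focal adhesion protein, was the SRF target farthest above wild type, at 5.05 against 2.62 FPKM, and Fhl2, a LIM-domain cofactor, the farthest below, at 26.0 against 38.6 FPKM.

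The R6/1 genes called in libraries that share nothing with the AAV groups give a second view. The authors' deposited 8-week table calls 764 genes (5.34%) lower and 113 genes (0.789%) higher in R6/1 than in wild type. Of the 684 lower genes that could be compared, 607 lay below the AAV wild type under Elk-1-AAV, with a median of -0.35, beside -0.46 in control-AAV R6/1. They include 35 of the 60 genes called 2-fold lower, which is 58.3% of the 60 and 5.12% of the 684, where 5.43% of all compared genes carry that 8-week call. They also include 26 genes 2-fold higher under Elk-1-AAV, which is 23.6% of the 110 and 3.80% of the 684. Over all compared genes, 0.477% were 2-fold lower and 0.874% were 2-fold higher. Of the 26 genes, 15 remain once members of the neighbouring-tissue lists are taken out. In control-AAV R6/1, 76 of the 684 genes were 2-fold lower than wild type and 18 were 2-fold higher. The 107 genes called higher at 8 weeks had a median of 0.16 under Elk-1-AAV and 0.43 in control-AAV R6/1, and 2 of them were 2-fold higher and 1 was 2-fold lower under Elk-1-AAV. Of the 284 genes (1.97%) that the authors' deposited table of CHL2 at 1 year calls lower, 257 could be compared. Of the 257, 19 (7.39%) were 2-fold lower under Elk-1-AAV (median -0.38) and 1 (0.389%) was 2-fold higher. The 202 compared of the 241 genes (1.67%) that the CHL2 table calls higher had a median of -0.09 under Elk-1-AAV and 0.23 in control-AAV R6/1.

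Genes lower by 2-fold or more at 8 weeks were not all low in either AAV R6/1 pool. Of 132 such genes, 28 were 2-fold lower than wild type under Elk-1-AAV, 20 were 2-fold higher and the median was -0.60. In control-AAV R6/1, 43 of the 132 were 2-fold lower and 15 were 2-fold higher, with a median of -0.82. Without members of the neighbouring-tissue lists, 122 such genes held 27 lower and 13 higher under Elk-1-AAV, with a median of -0.64. Control-AAV R6/1 held 42 of these 122 lower and 10 higher. Among those with a mean of at least 5 FPKM, the nearest to wild type were Col6a1, a collagen VI chain, at 27.8 against 32.4 FPKM, Sulf1, a heparan sulfatase, at 9.79 against 7.71 FPKM, and Rem2, a small GTPase that inhibits calcium channels, at 16.2 against 20.8 FPKM. Rbp4, the retinol-binding protein, stood at 28.9 FPKM in wild type, 15.1 FPKM in control-AAV R6/1 and 22.5 FPKM in Elk-1-AAV R6/1. Nptx2, a neuronal pentraxin, stood at 33.6, 27.2 and 25.9 FPKM and Rxrg, a retinoid receptor, at 37.3, 29.8 and 28.02 FPKM. Tmem200b, a transmembrane protein gene, stood at 6.57, 1.87 and 4.63 FPKM. In control-AAV R6/1 too these genes lay within 1.5-fold of wild type, except for Rbp4 and Tmem200b, and none was called between the R6/1 groups in the authors' deposited table. The farthest below were Myl4, Scn4b, Coch and Cpne9. Myl4, an atrial myosin light chain, stood at 55.0, 9.93 and 13.5 FPKM, with 3.05 to 9.32 FPKM in the pools with no AAV in their labels. Coch, the secreted protein cochlin, stood at 34.4, 17.2 and 11.2 FPKM. Outside the 8-week calls, Fgf22, a growth factor, stood at 4.09, 3.28 and 0.684 FPKM, with the low value in the Elk-1 pool.

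**Figure D3:**
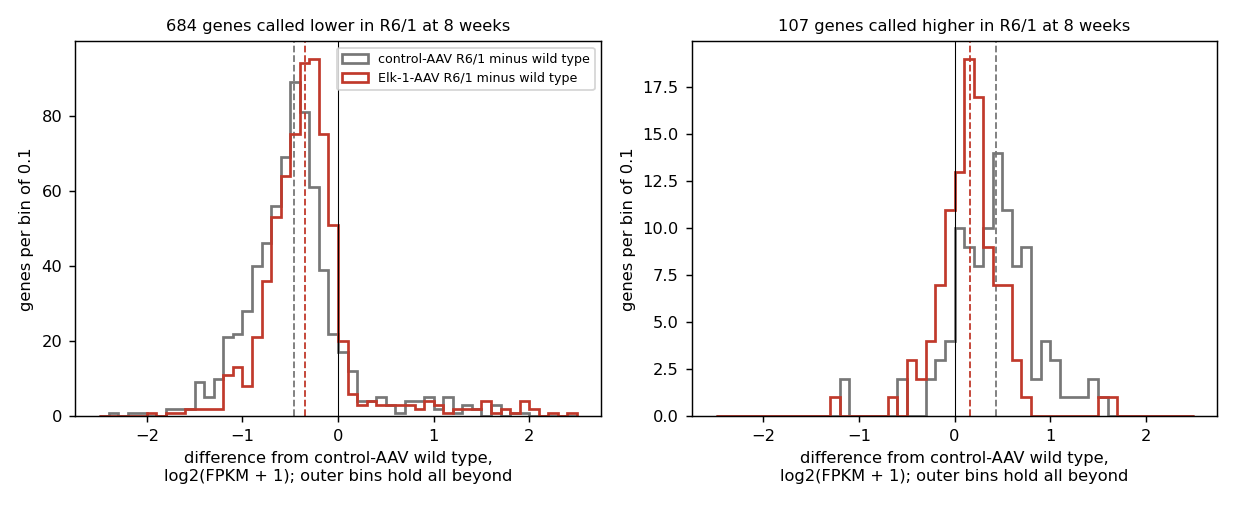
Histograms of the difference from control-AAV wild type on the log2(FPKM + 1) scale, in bins of 0.1, for the 684 compared genes that the authors' 8-week table calls lower in R6/1 (left) and the 107 it calls higher (right); red outlines are Elk-1-AAV R6/1, grey outlines control-AAV R6/1, and dashed lines their medians. Both outlines on the left are centred below 0, at -0.35 in red and -0.46 in grey, and on the right the medians are 0.16 and 0.43.

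Antigen presentation and interferon genes split by class. All 4 MHC class II genes were 2-fold lower than wild type under Elk-1-AAV (median -1.33) and in control-AAV R6/1 (median -2.19). H2-Ab1, a class II beta chain, stood at 45.5 FPKM in wild type, 7.70 FPKM in control-AAV R6/1 and 14.1 FPKM in Elk-1-AAV R6/1, and Cd74, the class II invariant chain, at 103, 18.2 and 40.9 FPKM. All 3 AAV pools lay above the pools with no AAV in their labels, which held 0.442 to 1.14 FPKM of H2-Ab1 and 1.94 to 4.59 FPKM of Cd74. None of 9 MHC class I presentation genes was past 2-fold under Elk-1-AAV (median 0.34), while 6 were 2-fold lower in control-AAV R6/1 (median -1.17). Besides class I chains, these 9 include peptide transporter (Tap) and proteasome subunit (Psmb) genes. B2m, the class I light chain, stood at 224, 129 and 298 FPKM, and the authors' deposited table gives a q of 0.0122 for its rise from control-AAV R6/1 to Elk-1-AAV R6/1.

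The other 23 interferon genes held 6 members 2-fold higher and 1 2-fold lower than wild type under Elk-1-AAV, with a median of 0.28, and 9 2-fold lower in control-AAV R6/1. Irf7, a transcription factor that amplifies type I interferon, stood at 2.94 FPKM in wild type, 1.45 FPKM in control-AAV R6/1 and 10.5 FPKM in Elk-1-AAV R6/1. Ifit1, which binds foreign RNA, stood at 2.03, 1.10 and 7.74 FPKM, and Isg15, a ubiquitin-like modifier, at 9.19, 4.48 and 22.1 FPKM. The Elk-1 pool was the highest for all 3 genes, above the 0.705 to 1.81 FPKM of Ifit1 in the pools with no AAV named. Ifi27l2a, an interferon-induced mitochondrial protein, stood at 10.96, 6.99 and 47.9 FPKM. In contrast, Igtp, an interferon-gamma-induced GTPase, stood at 25.6, 2.94 and 11.3 FPKM.

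Lymphocyte, microglial and reactive glial genes lay mostly above wild type. Only 3 of 19 T cell and B cell genes could be compared. Igj, the joining chain of secreted immunoglobulin (chr5:88948833-88956922, mm9), stood at 1.49, 2.84 and 38.2 FPKM, the largest difference above wild type of all genes compared, at 3.98. Ccl5, a T cell chemokine, stood at 5.86, 0.932 and 12.3 FPKM, while the T cell kinase gene Lck stood at 1.67, 1.30 and 2.23 FPKM. Of 21 microglial and complement genes 20 were above wild type under Elk-1-AAV, none by 2-fold, with a median of 0.35 (-0.17 in control-AAV R6/1). Of all 12589 genes, 6723 were above wild type. C1qa, a chain of the complement initiator C1q, stood at 87.1, 70.4 and 128 FPKM. C4b, complement component 4 of the reactive glia list, stood at 10.2, 5.36 and 18.96 FPKM, on opposite sides of wild type in the R6/1 pools. Gfap, the astrocyte filament protein, stood at 80.0, 98.2 and 126 FPKM. The 20 astrocyte genes had a median of 0.06 and the 24 myelin and oligodendrocyte genes one of 0.33, none past 2-fold in either list.

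Genes of tissues next to the striatum moved with the pools, and their part in the other results was not tested. All 19 choroid plexus and ependymal genes were 2-fold higher than wild type under Elk-1-AAV (median 1.63), and 15 were in control-AAV R6/1 (median 1.33). Ttr, the choroid plexus thyroxine carrier, stood at 333 FPKM in wild type, 1547 FPKM in control-AAV R6/1 and 2185 FPKM in Elk-1-AAV R6/1, with 545 to 1455 FPKM in the pools with no AAV named. Folr1, a folate receptor, stood at 2.88, 10.96 and 24.3 FPKM. The wild-type pool was thus the lowest of all 9 pools for both genes. The summed FPKM of the choroid plexus and ependymal list came to 535% of wild type under Elk-1-AAV and 377% in control-AAV R6/1. The pituitary hormone genes Prl and Gh stood at 12.4 and 26.6 FPKM in wild type, 33.5 and 21.9 FPKM in control-AAV R6/1 and 153 and 90.2 FPKM in Elk-1-AAV R6/1.

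Hypothalamic and thalamic genes were high in control-AAV R6/1 and not under Elk-1-AAV. Of 16 septal and hypothalamic genes 9 were 2-fold higher than wild type in control-AAV R6/1 (median 1.04), whereas none was higher and 2 were 2-fold lower under Elk-1-AAV (median -0.13). Pmch, the melanin-concentrating hormone precursor, stood at 1.247, 108 and 0.187 FPKM, Oxt, oxytocin, at 15.7, 110 and 8.83 FPKM and Avp, vasopressin, at 38.2, 99.3 and 15.3 FPKM. The summed FPKM of the septal and hypothalamic list was 71.4% of wild type under Elk-1-AAV and 356% in control-AAV R6/1. Prkcd, a kinase gene abundant in thalamus, stood at 7.11, 21.4 and 6.99 FPKM. Cortical genes ran the other way: all 18 were below wild type under Elk-1-AAV, 2 of them 2-fold lower (median -0.52), and 5 were 2-fold lower in control-AAV R6/1 (median -0.76). The 2 lower under Elk-1-AAV were Nrn1 and Ctgf, and Ctgf is also among the 13 lower genes of the activity-induced list. The cortical transcription factor gene Tbr1 stood at 43.9, 18.7 and 23.6 FPKM and the vesicular glutamate transporter gene Slc17a7 at 469, 249 and 327 FPKM. The pools with no AAV named reached 18.0 FPKM of Tbr1 and 269 FPKM of Slc17a7. The wild-type pool and the Elk-1 pool exceeded them for both genes, and control-AAV R6/1 for Tbr1 only.

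**Figure D4:**
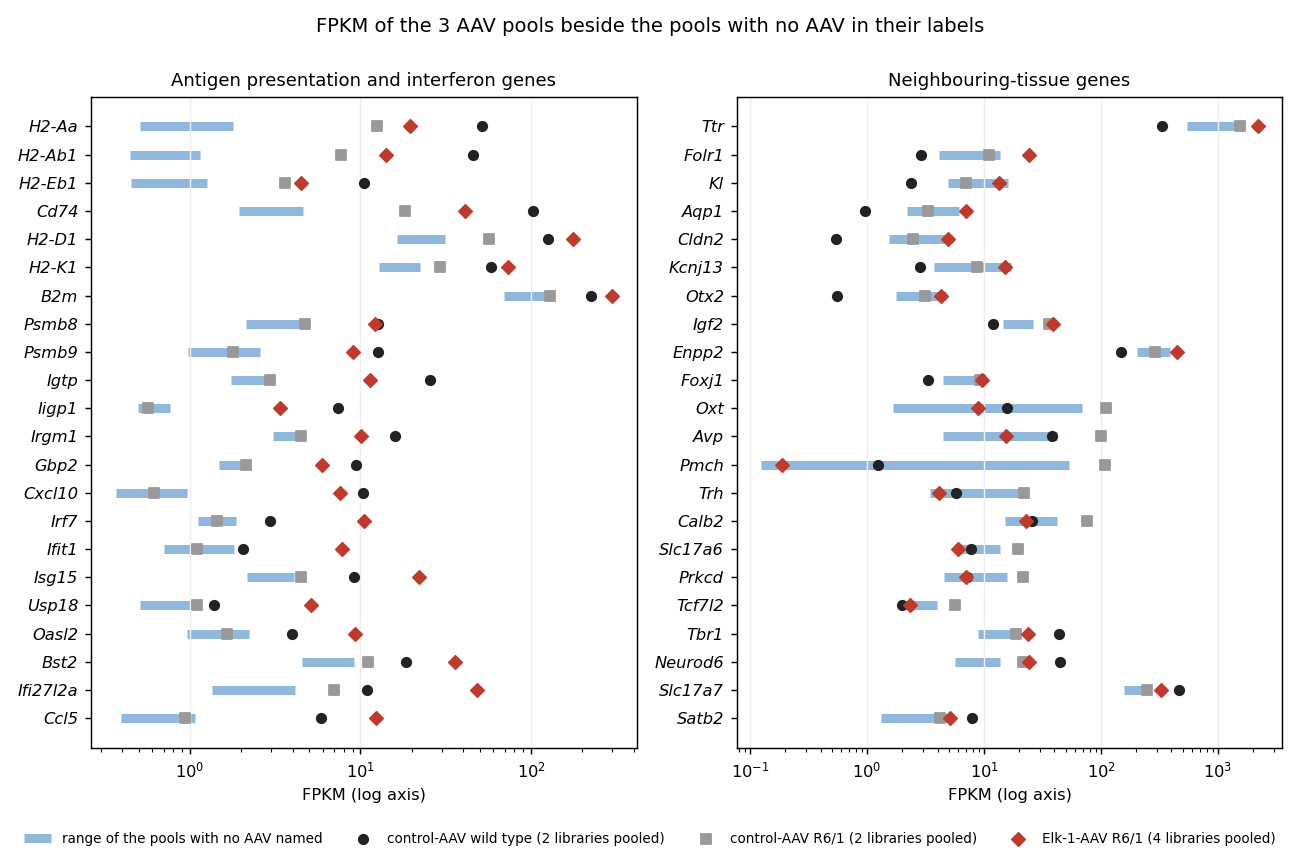
Pooled FPKM (log x axis) of antigen presentation and interferon genes (left) and of choroid plexus, hypothalamic, thalamic and cortical genes (right) in the 3 AAV pools, symbols as in the plot of projection neuron genes; blue bars span the pools with no AAV in their labels that list the gene (up to 6). MHC class II genes are highest in control-AAV wild type, Irf7, Ifit1 and Isg15 in Elk-1-AAV R6/1, Oxt, Avp and Pmch in control-AAV R6/1, and Ttr and Folr1 are lowest in control-AAV wild type.

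Ribosomal and housekeeping lists were mixed in size. Of 73 cytosolic ribosomal protein genes 15 were 2-fold higher than wild type under Elk-1-AAV and 5 in control-AAV R6/1, with medians of 0.35 and 0.26. The 15 are 20.5% of the list, beside 0.874% of all genes. Rpl35 stood at 1.66, 6.45 and 13.1 FPKM and Rps28 at 0.870, 6.39 and 8.09 FPKM, while Rpl29 stood at 15.3 FPKM in wild type and under Elk-1-AAV. Reads of such genes can be shared with pseudogene copies, which makes their values uncertain. Rpl26 is listed near 0 in wild type, at 0.00116 FPKM, and at 12.9 and 5.83 FPKM in the R6/1 pools. Across 11430 genes, which are not independent, the change from wild type had a Spearman correlation of -0.19 with transcript length, and the median length was 1307 bases for the higher genes, 2790 for the lower genes and 3452 for all genes (longest transcript, matched for 90.8% of genes). Whether length had a part in these values was not tested. Oxidative phosphorylation genes (82 genes, median 0.08, 2 higher), proteasome subunits (37 genes, median -0.03, 1 higher) and chaperones (27 genes, median -0.00, none past 2-fold) lay near wild type. Cholesterol synthesis genes had a median of -0.21 in both R6/1 pools with none of 22 past 2-fold, and the farthest was Sc4mol, a sterol oxidase, at 48.6 against 83.1 FPKM.

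**Figure D5:**
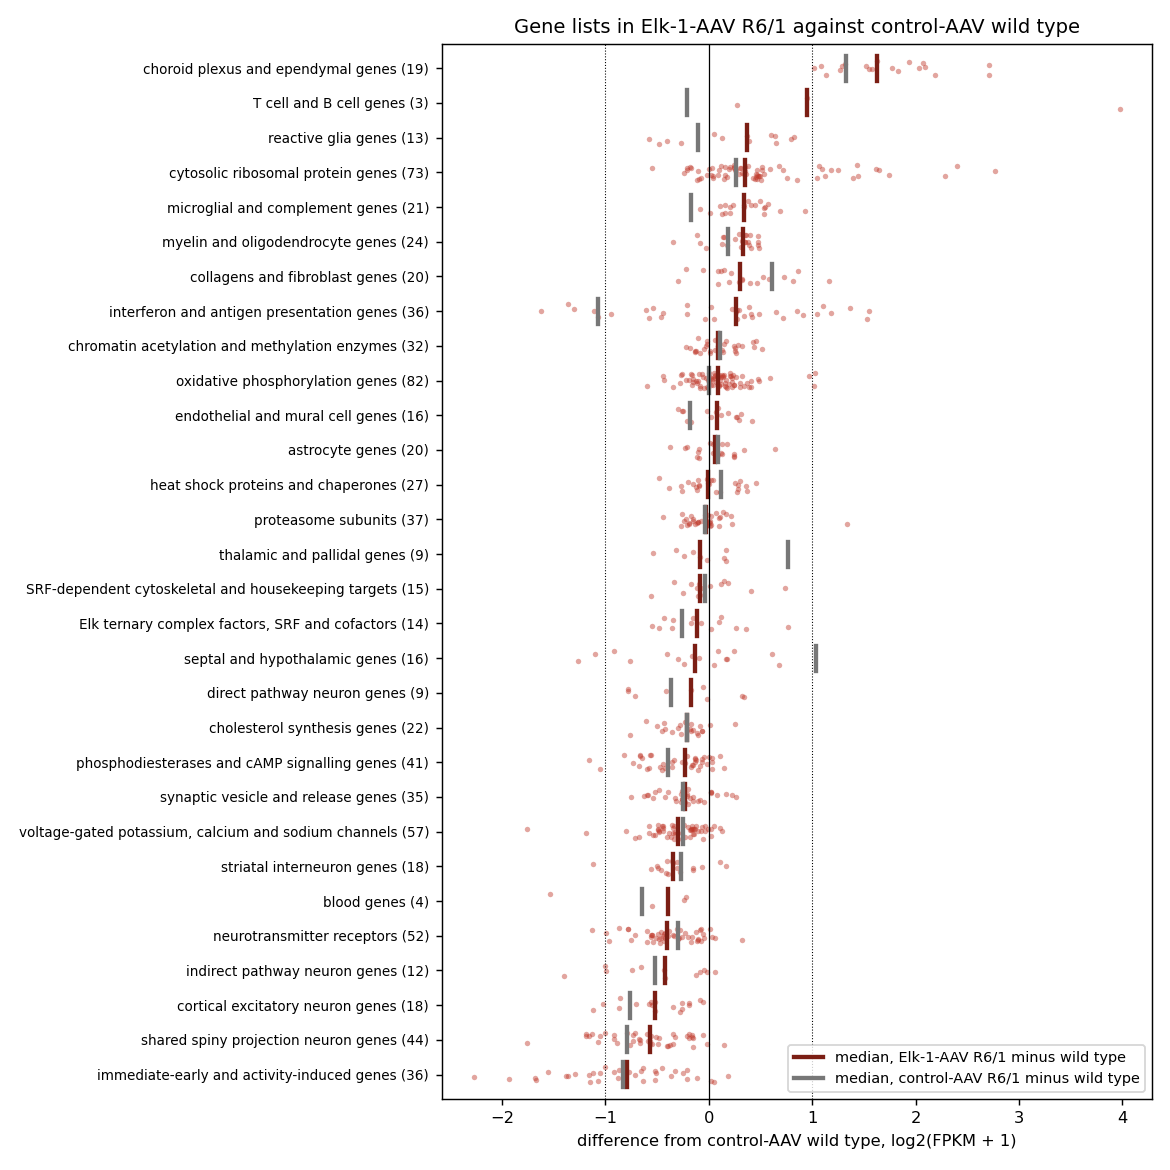
Each dot is 1 measured gene of a list, placed by its difference between Elk-1-AAV R6/1 and control-AAV wild type on the log2(FPKM + 1) scale; dark red bars mark the list median, grey bars the median of the same genes in control-AAV R6/1, dotted lines 2-fold, and the number after each list its compared genes. The activity-induced and shared projection neuron lists have the lowest medians, at -0.79 and -0.57, and the choroid plexus and ependymal list the highest, at 1.63; the red and grey bars of the interferon, hypothalamic and thalamic lists lie far apart, as do those of the T cell and B cell list, which has 3 genes.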

How the data were processed

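RNA of mouse striatum was extracted with Trizol and sequenced from TruSeq libraries, per the labels' protocols. The mm9 genome and Cuffdiff, Cufflinks, Bowtie and TopHat are named per the submitters' processing notes, without versions; how strand and annotation were handled is not stated in those notes. The authors deposited 5 tables, each with 1 pooled FPKM per group and gene. The same deposited tables hold a log2 fold change, a test score and the authors' p-value and q-value, used here only for the authors' own comparisons (called at a q under 0.05). Depth per library is unknown, so no interval or floor can be given. Whether libraries are separate animals is not stated, so the authors' p-values may measure technical spread only.

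Elk-1 and wild-type values were joined by symbol, scaled through the shared control-AAV R6/1 column, and compared as log2(FPKM + 1), which understates the change of weak genes. Scaling and calls were tested on simulated data. Rows of microRNAs and small nucleolar and nuclear RNAs were left out (8 rows), as were 13 rows under the minimum mean FPKM. Of the genes compared, 11.1% share their listed position with another gene and may hold the same reads. Whether mm9 starts count from 0 or 1 is not stated. Alternatives were other scalings, pseudocounts, filters and gene sets.

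Named genes are the 12 largest falls and 12 largest rises, a fixed list of 24 listed striatal and Elk-related genes, up to 4 far and 2 near members per list, 8 nearest and 8 farthest of the 8-week genes, and the 6 most opposed between the R6/1 pools. Some genes named by this rule are not reported here. Gng7, Gh, Slc32a1, Cd74, B2m, Igtp, Slc17a7, Zfp36, Xist, Ddx3y and Eif2s3y were chosen after their values were seen. Further genes drawn in the plot of immune and tissue genes were chosen in the same way. The members and the 30 gene lists were chosen with earlier results of these data known. Values were computed with Python 3.11.15, pandas 2.3.3, numpy 2.4.6 and scipy 1.17.1.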

Additional observations from a re-analysis of the deposited data

How the results depend on the processing

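The 4 scalings between the tables, the pseudocounts of 0.1 and 0.5, the filters, the small RNA rows, the bridge filter and the removal of 1478 genes with overlapping positions kept the sign of the 4 list medians. All counts of calls stayed within 1.5 times except that a pseudocount of 0.1 gave 189 genes 2-fold higher. A 1.5-fold limit gave 297 lower (2.36%) and 346 higher genes (2.75%). With the 8-week wild-type pool as reference, chosen after seeing the data, 597 genes were lower, 720 higher, the shared projection neuron median was -1.23 and the activity-induced median -0.40. Among the gene values and other list medians, a pseudocount of 0.1 moved 51 of 230 by 0.1 log2 units or more and a pseudocount of 0.5 moved 30. No paired analysis was possible because the tables hold 1 pooled value per group; leaving out a replicate was not run for the same reason. Depth is unknown, so weak genes, among them the 33 higher genes below 1 FPKM in wild type, have unknown counting error.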
